A study of Mus musculus with 4 samples.

Results

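The 10 genes described here are 5 of the Frizzled genes (Fzd1, Fzd4, Fzd5, Fzd7 and Fzd8), which encode cell-surface receptors for Wnt proteins, the co-receptor genes Lrp5 and Lrp6, Ctnnb1 (beta-catenin), Tcf7l2, a DNA-binding partner of beta-catenin, and Axin2. They were chosen by symbol, as all probe sets that the array annotation assigns to exactly 1 of these genes. The rule found 23 probe sets of 45101 on the array, for 10 genes of 18193 measured. Each probe set combines several short probes against the same transcript.

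RNA came from mouse bone marrow-derived macrophages of C57BL/6 background, grown from marrow cells for 5 days with 10% serum and 10% supernatant of L929 cells, a fibroblast line that secretes macrophage colony-stimulating factor. The DKO cells lacked both Hes1 and Hey1, which encode basic helix-loop-helix repressors that Notch signalling is known to induce, and the WT cells were wild type. Cells received the bacterial product lipopolysaccharide (LPS, 2 ng/ml, 3 h) or were left untreated, which gives 4 groups: DKO with LPS, DKO untreated, WT with LPS and WT untreated. The sources used here do not give how the deletion was driven, the age of the mice or the number of mice behind a sample. Each group has 1 array, so no difference has a replicate check, no p-value or error is given, and the number of arrays limits the precision.

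Wnt proteins bind a Frizzled together with Lrp5 or Lrp6. In the canonical branch this stops a destruction complex, built on the Axin scaffolds, from degrading beta-catenin, which then enters the nucleus and activates genes with TCF factors. Axin2 is both a part of the destruction complex and a widely used transcriptional target of the branch. Other branches run from Frizzleds through cell polarity proteins or calcium. In macrophages, Wnt proteins are known to modulate inflammatory responses.

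Intensities are in array units on a linear scale. The median over all probe sets and arrays, 52.9 units, served as a floor, and lower values were raised to it ahead of the log2 step. Where 1 of the arrays compared lies under the floor, the difference is only a bound and is written as at least N-fold. Where both do, none is given. Genes are read by their brightest probe set, and "past 2-fold" means that intensities of 2 arrays differed by at least 2-fold. Median intensities were 50.8 (DKO with LPS), 51.0 (DKO untreated), 50.9 (WT with LPS) and 59.1 units (WT untreated). All 10 macrophage markers examined, among them Adgre1 and Csf1r, were above the floor on every array. Of markers of other blood and vessel cells, S100a8, Itgax and Kdr were above it on every array, and no T cell marker was on any. The deleted genes were dim: Hes1 read 5.80, 2.14, 26.7 and 45.4 units and Hey1 10.2, 9.17, 17.3 and 57.2 units in the same order of groups. All but 1 of these values are under the floor, and the DKO arrays hold the lower ones for both genes. The sources used here do not say whether the probe sets read the deleted parts.

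Of the 10 genes, 7 were above the floor on all arrays, 2 on some (Fzd4 and Axin2) and 1 on none (Fzd8). Fzd1 was the only one past 2-fold in any of the 5 comparisons, with the brightest probe set standing for each gene. Of 9 genes with a value, it was the 1 higher with LPS in DKO cells, where 4.66% of all genes tested were higher, and the 1 higher with LPS in WT cells, where 3.36% were. It was also the 1 of 9 higher in DKO than in WT cells under LPS, against 0.845% of all genes, and the 1 of 7 whose LPS effect was greater in DKO cells past 2-fold, against 1.31%. None of the 10 was lower past 2-fold, where 4.77%, 3.41%, 0.934% and 0.721% of all genes were in these 4 comparisons. Without LPS none of 8 differed between genotypes past 2-fold, against 1.45% of all genes, 0.466% on the higher and 0.984% on the lower side. The directions among all genes depend on the scaling of the arrays. With array medians set equal, 97 genes were higher and 43 lower in DKO than in WT cells without LPS, in place of 53 and 112, the LPS effect was higher in DKO cells for 82 and lower for 171, in place of 131 and 72, and LPS in WT cells gave 520 higher and 194 lower, in place of 386 and 392. Quantile normalization gave 66 higher and 70 lower without LPS and 428 higher and 255 lower with LPS in WT cells. The counts of the 10 genes were the same under both scalings. At 1 gene of at most 9, none of these counts describes the group as a whole.

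**Figure D1:**
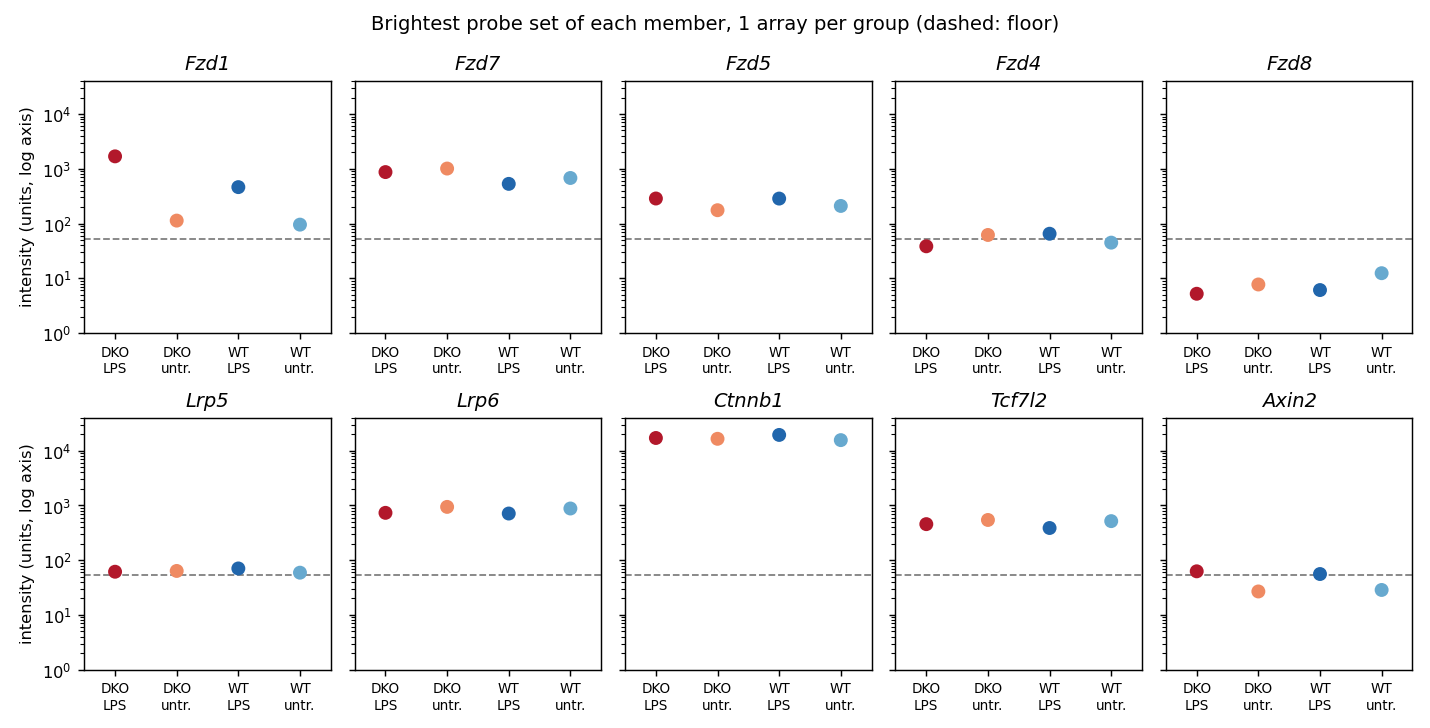
Intensity (log axis, array units) of the brightest probe set of each of the 10 genes on the 4 arrays, 1 point per array, with the floor of 52.9 units dashed. Fzd1 stands at 1685 units on the DKO array with LPS and at 113 on the untreated DKO array, Fzd8 lies under the floor throughout, and Ctnnb1 is the brightest at 15604 to 19408 units.

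Upstream sequences are shown for 3 Frizzled genes whose levels differed most in some comparison: Fzd1, past 2-fold, and Fzd7 and Fzd5, past 1.5-fold. Each runs 5′ to 3′ over the 250 bases before the gene's start in RefSeq, build GRCm38.p6. Capitals mark matches to the motifs searched. The Fzd1 window is chr5:4758217-4758466 on the minus strand, the Fzd7 window chr1:59481897-59482146 on the plus strand and the Fzd5 window chr1:64737751-64738000 on the minus strand.
Fzd1: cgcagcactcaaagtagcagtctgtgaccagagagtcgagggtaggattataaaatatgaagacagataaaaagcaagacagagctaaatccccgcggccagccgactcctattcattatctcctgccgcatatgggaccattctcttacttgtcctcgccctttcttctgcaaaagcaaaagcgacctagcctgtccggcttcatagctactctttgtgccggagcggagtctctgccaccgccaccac
Fzd7: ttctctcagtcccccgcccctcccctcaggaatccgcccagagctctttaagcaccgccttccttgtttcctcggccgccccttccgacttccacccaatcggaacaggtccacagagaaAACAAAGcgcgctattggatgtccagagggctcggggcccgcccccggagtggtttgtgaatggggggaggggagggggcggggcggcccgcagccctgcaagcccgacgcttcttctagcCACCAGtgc
Fzd5: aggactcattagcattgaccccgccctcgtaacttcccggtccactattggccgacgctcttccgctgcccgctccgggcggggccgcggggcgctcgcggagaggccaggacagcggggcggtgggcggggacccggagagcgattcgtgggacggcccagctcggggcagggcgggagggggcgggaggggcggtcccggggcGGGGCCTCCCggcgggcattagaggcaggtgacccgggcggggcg

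The motifs, searched on both strands, were CTTTGAT and its variant CTTTGTT for TCF factors, the N box CACNAG, the E box CACGTG and the related box CACGCG for HES and HEY proteins, the motif TGGGAA for the Notch effector RBPJ, and the NF-kB motif. No match to any of them was found in the Fzd1 window. The Fzd7 window held 1 CTTTGTT match, 130 bases before the start, and 1 CACNAG match, 9 bases before it. These motifs occur in 5.03% and 36.7% of the 32851 upstream windows of the same length. The Fzd5 window held 1 match to the NF-kB motif, 45 bases before the start, which 5.93% of windows hold. Windows were found for 7 of the 10 genes. Among those not shown, a Tcf7l2 window also held an NF-kB match 45 bases before the start, and another a CTTTGTT match. The Ctnnb1 windows held CACNAG and CACGCG matches, the latter a motif in 7.62% of windows. No match was found for Fzd4 or Axin2. The G and C content was 51.2% for Fzd1, 65.2% for Fzd7, 76.4% for Fzd5 and 72.8% for Fzd4. No matches overlapped in the windows shown. A match is a stretch of letters and not a binding site, and these arrays measured no binding.

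Fzd1, a receptor of the canonical branch that is known from mouse macrophages as a Frizzled raised by inflammatory stimuli, was far higher with LPS in both genotypes. Its brightest probe set, 1437284_at, read 1685 units in DKO cells with LPS, 113 in untreated DKO cells, 462 in WT cells with LPS and 95.4 in untreated WT cells. Both LPS arrays lie well above both untreated arrays, and the DKO array with LPS is the highest by a wide margin. The LPS difference was 14.9-fold in DKO cells, rank 37 among 11240 genes ordered by increase, and 4.84-fold in WT cells, rank 97 among 11489.

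Under LPS, Fzd1 was 3.65-fold higher in DKO than in WT cells, rank 7 of 11236 genes. Without LPS it was 1.18-fold higher, a difference that 35.1% of genes equalled or exceeded in either direction. The LPS effect was therefore greater in DKO than in WT cells by 1.62 on the log2 scale, or 3.08-fold, rank 22 of 9981 genes. Both untreated values are close to the floor, and with the floor raised to the 65th percentile of intensities, 168 units, no difference of LPS effects can be given. The dimmer Fzd1 probe set, 1422985_at, read 68.2 units in DKO cells with LPS, 20.0 in untreated DKO cells, 33.6 in WT cells with LPS and 29.2 in untreated WT cells. It was above the floor only on the DKO array with LPS, at least 1.29-fold higher there than on the untreated DKO array and likewise at least 1.29-fold higher than on the WT array with LPS. It therefore gives no second measurement of the LPS effect in WT cells or of the difference of LPS effects.

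In RNA from a whole culture, fewer cells of a type and less RNA per cell cannot be told apart. The summed intensity of 8 stromal markers was higher on both LPS arrays than on the untreated arrays. It was 272 units in DKO cells with LPS, 135 untreated, 226 in WT cells with LPS and 154 untreated. Of the 8, only Pdgfrb, the platelet-derived growth factor receptor gene of mural and stromal cells, was above the floor, at 144 and 62.1 units on the DKO and WT arrays with LPS, against 4.05 and 24.2 on the untreated DKO and WT arrays. The other 7, among them Col1a1, Col1a2 and Dcn, reached at most 47.4 units on any array. With LPS, all of these except Col1a2 read lower in DKO than in WT cells, but values under the floor give no difference here. Pdgfrb carries the change of the sum in DKO cells, while in WT cells some markers under the floor rose as well and Col1a2 fell. The part of stromal cells in the Fzd1 values was not tested.

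**Figure D2:**
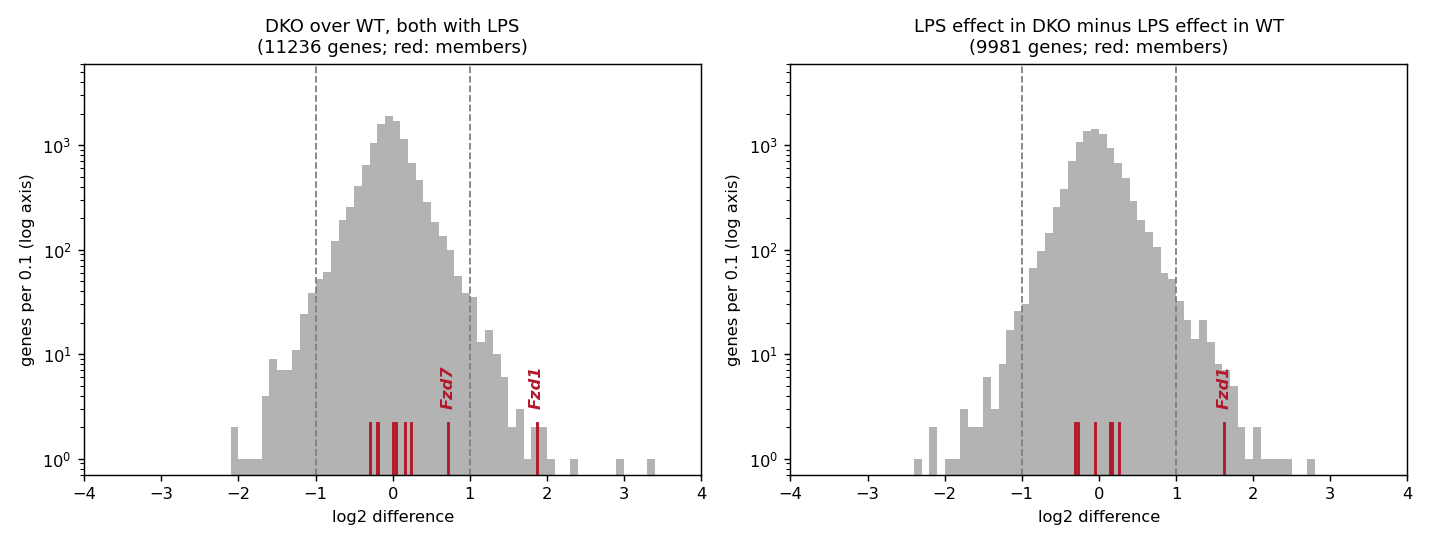
Number of genes (log axis) per 0.1 of the log2 difference, for DKO over WT with LPS (left) and for the LPS effect in DKO minus that in WT (right), with the 10 genes where measured as red ticks and 2-fold dashed. Fzd1 lies at 1.87 and 1.62, and the other members lie inside 2-fold in both panels.

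Fzd7, a close relative of Fzd1, read 870 units in DKO cells with LPS, 1009 in untreated DKO cells, 530 in WT cells with LPS and 678 in untreated WT cells by its only probe set above the floor, 1450044_at. Both DKO arrays lie above both WT arrays, and within each genotype the LPS array is the lower one. It was 1.64-fold higher in DKO than in WT cells under LPS and 1.49-fold higher without LPS, which 5.23% and 7.64% of genes equalled or exceeded in either direction. These values stay short of 2-fold, but at 1.5-fold the first passes, along with 4.03% of all genes on the higher side. The LPS effects of Fzd7 were -0.21 in DKO and -0.36 in WT cells on the log2 scale, 0.14 apart. Its second probe set, 1450043_at, was under the floor on all arrays at no more than 6.46 units.

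Fzd5, known in human macrophages as a receptor through which Wnt5a acts, read 286 units in DKO cells with LPS, 175 in untreated DKO cells, 285 in WT cells with LPS and 209 in untreated WT cells. Both LPS arrays lie above both untreated arrays and are nearly equal to each other. The LPS difference was 1.64-fold in DKO and 1.36-fold in WT cells, values that 17.5% and 29.7% of genes equalled or exceeded in either direction. At 1.5-fold Fzd5 passes in DKO cells, along with 8.94% of all genes on the higher side. The log2 difference between DKO and WT cells was 0.0041 under LPS and -0.26 without LPS. Its other probe set, 1422937_at, stayed at or under 44.8 units.

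Fzd4, a receptor for norrin as well as for Wnt proteins, lay around the floor: its brightest probe set, 1434756_at, read 38.4 units in DKO cells with LPS, 61.8 in untreated DKO cells, 65.1 in WT cells with LPS and 44.7 in untreated WT cells. The bounds that follow are small, at least 1.17-fold lower with LPS in DKO cells and at least 1.23-fold higher with LPS in WT cells. The array above the floor was the untreated one in DKO cells and the LPS one in WT cells. The other probe sets of Fzd4 were under the floor on every array. Fzd8, a close relative of Fzd5, gave at most 12.4 units in its pair of probe sets, within the range of the 27 bacterial control probe sets, which reached 22.8 to 46.0 units at most per array. The sources used here do not say whether the bacterial transcripts were added to the samples, so these probe sets may not measure background alone. The remaining 5 Frizzled genes of the array, Fzd2, Fzd3, Fzd6, Fzd9 and Fzd10, were under the floor on every array, at 2.84 to 52.5 units.

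Lrp5 and Lrp6 encode the transmembrane co-receptors that are phosphorylated on the inner side when a Wnt protein joins them to a Frizzled. Lrp5 was just above the floor throughout, at 61.6 units in DKO cells with LPS, 63.7 in untreated DKO cells, 70.7 in WT cells with LPS and 59.2 in untreated WT cells. The difference between the highest and the lowest of them, LPS in WT cells, was 1.19-fold. The brighter probe set of Lrp6, 1428500_at, read 733 units in DKO cells with LPS, 941 in untreated DKO cells, 712 in WT cells with LPS and 880 in untreated WT cells. Here both LPS arrays were lower, by log2 differences of -0.36 in DKO and -0.31 in WT cells, and the genotypes were within 1.07-fold of each other in both states.

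The second Lrp6 probe set, 1451022_at, read otherwise: 217 units in DKO cells with LPS, 385 in untreated DKO cells, 288 in WT cells with LPS and 291 in untreated WT cells. By this probe set the LPS effect was -0.83 in DKO and -0.017 in WT cells on the log2 scale, a difference of -0.81 that 3.92% of genes equalled or exceeded in size. The first probe set gave -0.055 for the same quantity. Within 1 sample per group, the probe sets of Lrp6 thus differ by 0.76 in this measure, and neither passes 2-fold.

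**Figure D3:**
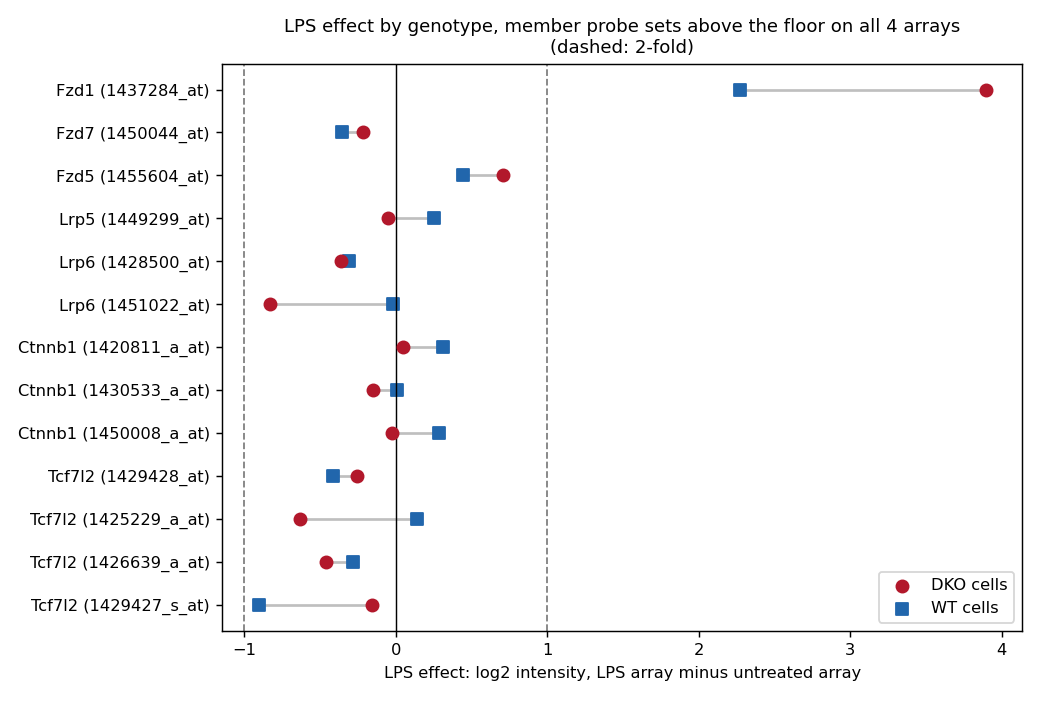
LPS effect (log2 intensity with LPS minus log2 intensity untreated) in DKO cells (circles) and WT cells (squares) for the 13 probe sets of these genes that were above the floor on all 4 arrays. Only Fzd1 lies past the dashed 2-fold lines, at 3.90 in DKO and 2.28 in WT cells.

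Ctnnb1, whose product beta-catenin carries the canonical signal and also anchors cadherins, varied little between arrays. Probe set 1420811_a_at read 17067 units in DKO cells with LPS, 16490 in untreated DKO cells, 19408 in WT cells with LPS and 15604 in untreated WT cells. The highest and the lowest value are both from WT cells, and the DKO arrays lie between them. The LPS effects by the 3 probe sets of Ctnnb1 lay between -0.15 and 0.050 in DKO cells and between 0.009 and 0.31 in WT cells on the log2 scale. Under LPS all 3 read lower in DKO than in WT cells, by log2 differences of -0.19 to -0.42, where 47.0% and 17.2% of genes differed at least as far. Beta-catenin is controlled largely through the stability of the protein, which these arrays do not measure.

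Tcf7l2, the TCF factor gene of this group, was read by 4 probe sets, each above the floor throughout. The brightest, 1429428_at, read 456 units in DKO cells with LPS, 543 in untreated DKO cells, 388 in WT cells with LPS and 517 in untreated WT cells. The LPS arrays were the lower ones in both genotypes, by log2 differences of -0.25 in DKO and -0.42 in WT cells. All 4 probe sets gave a negative LPS effect in DKO cells, from -0.15 to -0.63, and 3 of 4 did so in WT cells, from -0.90 to 0.14.

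In untreated cells the probe sets of Tcf7l2 went apart. Probe set 1425229_a_at read 159 units in untreated DKO and 86.4 in untreated WT cells, a log2 difference of 0.87, while 1429427_s_at read 360 units in untreated DKO and 573 in untreated WT cells, a log2 difference of -0.67. Such differences were equalled or exceeded in size by 2.40% and 5.18% of genes. The other probe sets, the brightest included, gave 0.070 and 0.059. The probe sets may read different transcripts of the gene, and the sources used here do not give the exons they cover. Under LPS the 4 probe sets lay between -0.12 and 0.23 in the comparison of DKO with WT cells.

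**Figure D4:**
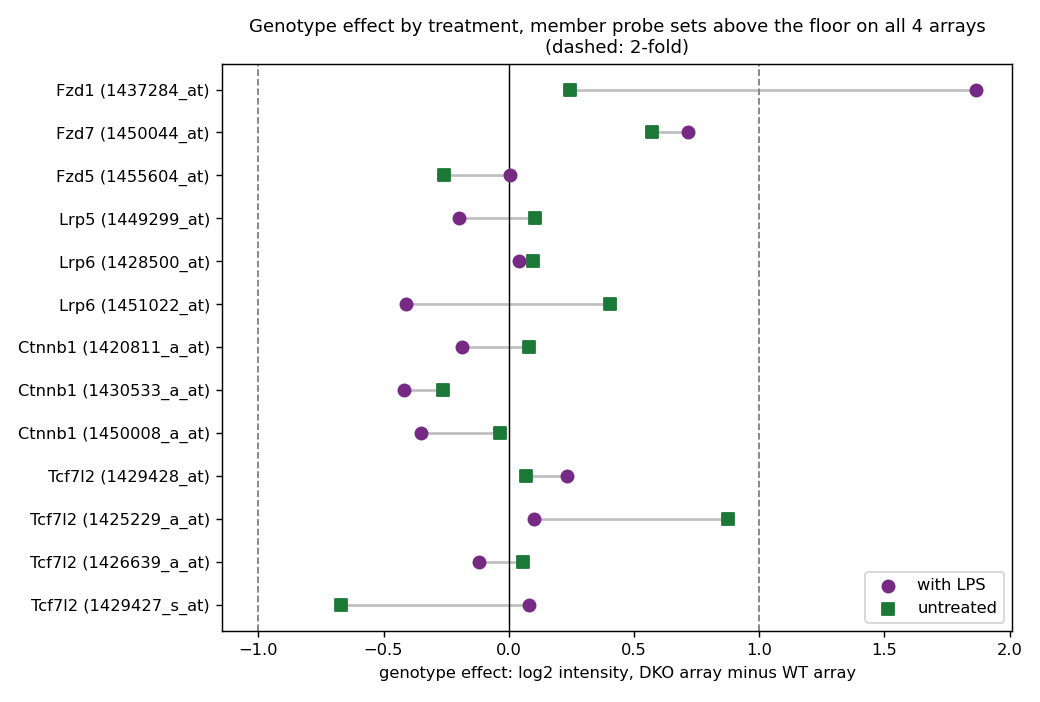
Genotype effect (log2 intensity in DKO minus log2 intensity in WT) with LPS (circles) and untreated (squares) for the same 13 probe sets. Fzd1 with LPS, at 1.87, is the only point past the dashed 2-fold line, Fzd7 lies on the positive side in both states, and the Tcf7l2 probe sets spread from -0.67 to 0.87 in untreated cells.

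Axin2 was read at or near the floor. Probe set 1436845_at gave 62.7 units in DKO cells with LPS, 26.9 in untreated DKO cells, 56.0 in WT cells with LPS and 28.6 in untreated WT cells. Both LPS arrays were above the floor and both untreated arrays under it, so LPS gave bounds of at least 1.18-fold higher in DKO and at least 1.06-fold higher in WT cells. With the floor lowered to the 35th percentile, 23.8 units, the log2 differences were 1.22 in DKO and 0.97 in WT cells. The bacterial controls reached 23.5 units in untreated DKO cells and 32.7 in untreated WT cells, so the Axin2 value was above that maximum in untreated DKO cells and under it in untreated WT cells. Under LPS the genotypes differed by 1.12-fold. The second probe set, 1421341_at, stayed under the original floor on every array. In DKO cells it read 24.2 units with LPS and 4.98 untreated, and in WT cells 7.71 with LPS and 27.5 untreated. With the lowered floor of 23.8 units, the DKO array with LPS and the untreated WT array lie above it. By this probe set the LPS array was thus the higher one in DKO cells but the lower one in WT cells, unlike 1436845_at. Its value in untreated WT cells was also under the maximum of the bacterial controls there.

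Other genes of the pathway were taken from 7 lists of ligands, further receptors, modulators, relay proteins, nuclear factors, common TCF targets and the polarity and calcium branch, 131 genes in all. Of these, 56 were above the floor on all arrays, 21 on some and 54 on none. Among 71 with a value, 5 were higher and 6 lower with LPS in DKO cells, 15.5% of them against 9.43% of all genes tested. In WT cells 4 were higher and 5 lower of 72, or 12.5% against 6.77%. With array medians set equal, and likewise with quantile normalization, 6 were higher and 3 lower in WT cells, since Daam1 and Myc passed on the higher side and Dact3 and Nfatc2 no longer passed on the lower. With the deposited scaling, common TCF targets made up the largest part of the genes past 2-fold with LPS in both genotypes. Of 11 targets with a value, 5 passed in DKO cells (45.5%) and 4 in WT cells (36.4%). No other list gave more than 3 genes in either genotype. Median LPS effects over all listed genes with a value were -0.076 in DKO and -0.083 in WT cells, beside -0.10 and -0.086 for all genes. The comparison of DKO with WT cells gave 1 lower of 69 under LPS (1.45% against 1.78% of all genes) and 2 lower of 72 without LPS (2.78% against 1.45%), and the difference of LPS effects was past 2-fold for 2 of 56, Dact3 and Mmp14 (3.57% against 2.03%), both greater in DKO cells. With array medians set equal these 2 were Mmp14 (1.33 on the log2 scale) and Btrc, which marks beta-catenin for degradation, whose LPS effect was lower in DKO cells (-1.04). The lists are not independent of earlier results, and several of their target genes are known from inflammation.

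Among the 21 ligand and secretion genes, 3 were above the floor on all arrays. The brightest was Wls, the carrier that brings Wnt proteins to the cell surface, at 1293 units in DKO cells with LPS, 1985 in untreated DKO cells, 1238 in WT cells with LPS and 1601 in untreated WT cells. The other pair was chosen after the values were seen. Wnt7b read 251 units in DKO cells with LPS, 155 in untreated DKO cells, 141 in WT cells with LPS and 166 in untreated WT cells, and Wnt6 stayed between 103 and 130. No ligand or secretion gene was past 2-fold in any comparison.

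Among modulators of the receptors, Znrf3, a ubiquitin ligase that removes Frizzleds from the cell surface, was lower with LPS in both genotypes. It read 106 units in DKO cells with LPS, 378 in untreated DKO cells, 186 in WT cells with LPS and 472 in untreated WT cells. Its log2 differences with LPS were -1.83 in DKO and -1.35 in WT cells, and the DKO array was the lower one in both states. Kremen1, a receptor for Dickkopf inhibitors and the brightest gene of that list, read 319 to 399 units on all arrays. Reck, the brightest of the further Wnt receptor genes, read 62.5 to 90.01.

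In the cytoplasmic relay, 3 genes passed 2-fold. Dvl2, one of the Dishevelled proteins that act below Frizzleds, was lower with LPS by log2 differences of -1.10 in DKO and -1.22 in WT cells, at 185 against 397 units in DKO cells and 190 against 442 in WT cells. Frat2, whose product binds the kinase GSK3, read 41.6 units in DKO cells with LPS, under the floor, and 211 in untreated DKO cells, at least 3.98-fold lower with LPS. In WT cells it was 1.86-fold lower. Dact3, a Dishevelled antagonist, had LPS effects of 0.095 in DKO and -1.004 in WT cells, 1.10 apart. The brightest gene of this list, Fbxw11, which marks beta-catenin for degradation, was at 8548 to 13400 units, and Ctbp1 led the nuclear factors at 4904 to 6100.

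Of the common TCF targets, Mmp14, Jag1, Plaur and Met were higher with LPS in both genotypes and Ppard, a lipid-sensing nuclear receptor gene, was lower in DKO cells (log2 difference -1.31). Jag1, which is also a Notch ligand gene, was 19.3-fold higher in DKO and 10.8-fold in WT cells. Mmp14, a membrane metalloprotease gene, was 51.3-fold higher in DKO and 17.6-fold in WT cells from dim untreated values of 59.8 and 164 units. With LPS it read 3068 units in DKO and 2902 in WT cells, 1.06-fold apart. Its greater LPS effect in DKO cells thus comes from the untreated values. With the floor at the 65th percentile, its LPS effects were bounds of 4.19 in DKO and 4.11 in WT cells on the log2 scale. Plaur, the urokinase receptor gene, was 4.33-fold higher in DKO and 2.40-fold in WT cells. Met, the receptor gene for hepatocyte growth factor, was at least 3.15-fold higher in DKO and 3.41-fold in WT cells, and it was the 1 list gene past 2-fold between genotypes under LPS, at 167 units in DKO and 353 in WT cells. Without LPS, Mmp14 and Plaur were lower in DKO cells, by log2 differences of -1.46 and -1.09. Met was also lower there, by at least 1.96-fold, at 32.6 units in untreated DKO cells, under the floor, and 104 in untreated WT cells. The other Mmp14 probe sets were under the floor on both untreated arrays. Cd44, the brightest of this list, read 13644 to 18285 units.

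In the polarity and calcium branch, the calcium-regulated transcription factor genes Nfatc1 and Nfatc2 were lower with LPS and the formin gene Daam1 was higher. Nfatc1 had LPS effects of -2.17 in DKO and -1.55 in WT cells on the log2 scale, but none of its other 4 probe sets passed 2-fold. Nfatc2 had -1.40 and -1.15 and Daam1 1.10 and 0.94 in DKO and WT cells. A dimmer Nfatc2 probe set went the other way in DKO cells: it read 92.8 units in DKO cells with LPS, 48.6 in untreated DKO cells, 30.1 in WT cells with LPS and 96.5 in untreated WT cells, at least 1.75-fold higher with LPS in DKO and at least 1.82-fold lower in WT cells. Rac1, a small GTPase gene and the brightest of this list, read 11380 to 13686 units.

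**Figure D5:**
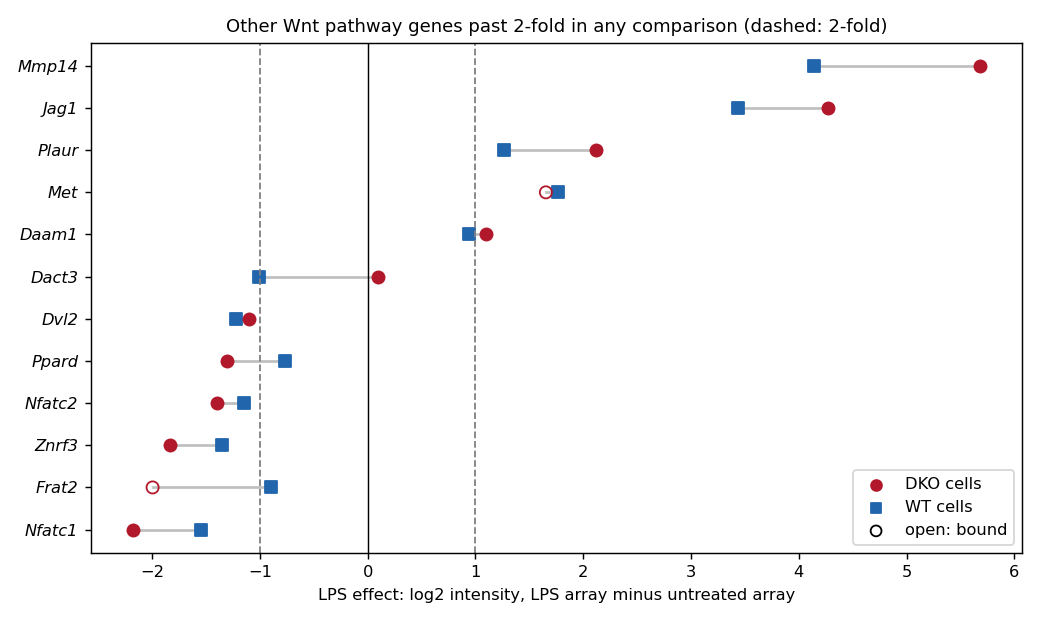
LPS effect (log2 intensity with LPS minus log2 intensity untreated) in DKO cells (circles) and WT cells (squares) for the 12 other pathway genes past 2-fold in any comparison, with bounds as open symbols. Mmp14 and Jag1 lie farthest on the positive side, and Dact3 is the only gene whose points lie on opposite sides of 0.

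The genes whose pattern over the 4 arrays was nearest to that of Fzd1, among 9980 others above the floor on all arrays, were Gm6377, AW112010 and Sdc4. Nearness is the Euclidean distance of log2 intensities centred on each gene's mean, 0.78 for Gm6377, 0.85 for AW112010 and 0.95 for Sdc4, the gene of a cell-surface proteoglycan. With 4 arrays such a distance is only a description. Gm6377 read 1250 units in DKO cells with LPS, 82.3 in untreated DKO cells, 624 in WT cells with LPS and 109 in untreated WT cells. Its LPS differences were 15.2-fold in DKO and 5.72-fold in WT cells, beside 14.9-fold and 4.84-fold for Fzd1. Under LPS it was 2.00-fold higher in DKO than in WT cells, AW112010 1.70-fold and Sdc4 1.44-fold, beside 3.65-fold for Fzd1. The difference of LPS effects was 2.66-fold for Gm6377, but 1.19-fold for AW112010 and 1.28-fold for Sdc4, beside 3.08-fold for Fzd1.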

How the data were processed

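Total RNA of 4 macrophage samples was amplified and labelled with biotin for 1-colour arrays, per the labels' protocols. The authors deposited linear intensities, 1 for each probe set of an array. Leaving out 2% of values at both ends, every array averages 500.0, so the deposited intensities had been scaled, with a tool that the sources used here do not name. The 64 control probe sets were dropped. The platform annotation gives 34945 of the others a single gene, 932 several (not named here) and 9160 none. A RefSeq table of GRCm38.p6 supplied current symbols by Entrez identifier for 34741.

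The floor, the 2-fold mark and the choice of the brightest probe set are given in the text; the difference of LPS effects was taken only for genes above the floor on all arrays. The calculation was tested on simulated data. Genes named were all 10 members by every probe set, pathway genes past 2-fold in any comparison, the brightest gene of each list, the 3 genes nearest to a member past 2-fold, and Hes1 and Hey1. The remaining Frizzleds, some cell type markers, Wnt7b, Wnt6, Myc and the genes of opposite LPS effects in the closing section were added outside that rule, after their values were seen. The members, lists and rules were chosen with earlier results of these data known. Alternatives were equal array medians, quantile normalization, a lower and a higher floor (35th and 65th percentile), log2 of the intensity plus 16 units with no floor, the median over a gene's probe sets, shared probe sets left out, and 1.5-fold. Python 3.11.15, numpy 2.4.6 and pandas 2.3.3 were used. Motifs were counted in RefSeq windows of GRCm38.p6.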

Additional observations from a re-analysis of the deposited data

Results flagged for a closer look

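LPS effects of opposite sign in DKO and WT cells were seen for 4 of 13 probe sets of the Wnt core and 14 of 56 other pathway genes above the floor on all arrays. With 1 array per group the difference was not tested for any of them. The share of all genes with opposite signs was not counted, so these counts do not set the pathway apart. Several of the values are very small, such as 0.013 in DKO and -0.0045 in WT cells for Rnf146 on the log2 scale. All 4 probe sets of the core kept opposite signs with array medians set equal and with quantile normalization, while 9 of the 14 other genes did so under both. Equal medians move all LPS effects of a genotype by the same amount, upward and far more in WT cells. Lrp5 went from 0.26 to 0.47 in WT and from -0.048 to -0.041 in DKO cells (log2). All 4 probe sets of the core were negative in DKO and positive in WT cells, so this shift could not remove their opposite signs. Of the 14 other genes, 8 ran the other way, so the contrast does not make the core result firmer. On the log2 scale, Ctnnb1 gave -0.15 in DKO and 0.0089 in WT cells by 1430533_a_at, and -0.024 in DKO and 0.29 in WT cells by 1450008_a_at. Its brightest probe set, 1420811_a_at, was positive in both genotypes with the deposited scaling, at 0.050 in DKO and 0.31 in WT cells. Lrp5 gave -0.048 in DKO and 0.26 in WT cells. Tcf7l2 gave -0.63 in DKO and 0.14 in WT cells by 1425229_a_at, while its other 3 probe sets were negative in both genotypes.

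Of the other genes, 8 were positive in DKO and negative in WT cells. Dact3 gave 0.095 in DKO and -1.004 in WT cells, Wnt7b 0.70 in DKO and -0.23 in WT cells, Bcl9 0.60 in DKO and -0.32 in WT cells, and Camk2d 0.51 in DKO and -0.32 in WT cells. The differences were less wide for Apcdd1 (0.30 in DKO and -0.15 in WT cells), Wnt6 (0.14 and -0.22), Csnk1a1 (0.18 and -0.085) and Rnf146 (0.013 and -0.0045). The remaining 6 were negative in DKO and positive in WT cells. Btrc gave -0.54 in DKO and 0.29 in WT cells, Rac1 -0.041 in DKO and 0.27 in WT cells, Gsk3b -0.10 in DKO and 0.13 in WT cells, Chd8 -0.10 in DKO and 0.10 in WT cells, Tnks2 -0.14 in DKO and 0.010 in WT cells, and Kremen1 -0.091 in DKO and 0.049 in WT cells. Apcdd1, Csnk1a1, Rnf146, Kremen1 and Tnks2 lost the opposite signs under 1 or both of these scalings. Only the Dact3 value in WT cells reached 2-fold, and it was -0.79 with equal medians and -0.81 with quantile normalization.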

How the results depend on the processing

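No paired analysis was possible because each group has 1 array, and no replicate could be left out. Of 271 alternative values for single members, 269 kept their side of the 2-fold mark, Axin2 with LPS in DKO cells passed it with the lower floor (1.22), and the Fzd1 difference of LPS effects fell short of it with the median of probe sets (0.99). That value is set by the floor: the dimmer Fzd1 probe set, under the floor on 3 of 4 arrays, enters there at the floor, and for the other pathway genes dim probe sets enter in the same way. Many of the 271 values could not change, since another floor leaves bright members as they are. Fzd5 with LPS in DKO cells stays at 0.71 under both other floors. Values undefined in either setting are not counted, such as the Fzd1 difference of LPS effects with the higher floor. With array medians set equal, the median over all genes was 0.12 in place of -0.086 for LPS in WT cells, 0.19 in place of -0.017 for DKO against WT untreated and -0.26 in place of -0.047 for the difference of LPS effects. There Fzd1 stood at 2.49, 0.46 and 1.41. Among members, counts past 2-fold became 2 for LPS in DKO cells and 2 for the difference of LPS effects with the lower floor, where Fzd4 (-1.23, from LPS effects of -0.69 in DKO and 0.54 in WT cells) joins Fzd1 in the opposite direction, 0 for that difference with the higher floor or the median of probe sets, and, at 1.5-fold, 2 for LPS in DKO cells and 2 for DKO against WT with LPS. Among other pathway genes, in the order LPS in DKO, LPS in WT, DKO against WT with LPS, the same untreated, and the difference of LPS effects, counts were 11, 9, 1, 2 and 2. With the lower floor the first 4 were 19, 16, 10 and 9. Over all genes, LPS in DKO cells then gave 800 higher and 771 lower of 14023, in place of 524 and 536 of 11240. DKO against WT with LPS gave 327 and 318 of 14118, in place of 95 and 105 of 11236. LPS in WT cells gave 548 and 791 of 14352, and DKO against WT untreated gave 173 and 495 of 14178. The difference of LPS effects gave 376 and 163 of 11404. Without a floor the pathway counts were 27, 17, 12, 12 and 25. All genes then gave 1009 higher and 904 lower of 18193 for LPS in DKO cells. For the difference of LPS effects all genes gave 1287 and 774, in place of 131 and 72 of 9981. LPS in WT cells gave 779 and 925, DKO against WT with LPS 498 and 547, and the same untreated 337 and 707. With the median of probe sets the pathway counts were 7, 4, 0, 1 and 0, and at 1.5-fold 22, 21, 8, 9 and 10. The untreated count was 1 with equal medians, with the higher floor and with shared probe sets left out, and the higher floor left 0 for the difference of LPS effects. Over all genes, the higher floor gave 21 higher and 42 lower of 9130 for the untreated comparison. For the difference of LPS effects it gave 30 and 18 of 8309. Signal over background limits Fzd4, Fzd8, Lrp5 and Axin2, which lie at or under the floor or just above it.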
